A study of Homo sapiens with 10 samples.

Results

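The enzymes described here make or interconvert glutamine, glutamate, aspartate, asparagine, alanine, proline and arginine precursors. They are GLS2, GLUL, GOT1, GOT2, GPT2, ASNS, PYCR1, ALDH18A1 and ASS1, chosen as the probe sets that carry one of these 9 symbols in the platform's probe-to-gene table. For 7 of the 9 a probe set was found, 1 per gene, among 17511 named probe sets and 18569 in all. The expression of GLS2 and GPT2 was not analysed here. The arrays, Affymetrix Clariom S human HT, measured total RNA of A375 cells, an established human skin melanoma line with an activating BRAF mutation. There were 5 arrays of cells plated with doxycycline at 2 µg/ml and 5 of control cells plated without it, all frozen on day 4 and grown in RPMI1640 with glutamine and serum. Omomyc, named in the title of the series, is a mutant of the MYC dimerisation domain and interferes with MYC-driven transcription. The labels do not describe the construct, its promoter or whether the cells are 1 clone, and no array is labelled as doxycycline-treated without Omomyc, so effects of doxycycline itself and of a transgene cannot be told apart. The labels call the arrays of a group biological replicas but do not say that they came from separate cultures, so p-values here reflect only array-to-array spread, some of which may be technical.

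Glutamine carries nitrogen into much of a cell's biosynthesis. GLUL fixes ammonia on glutamate to make glutamine, glutaminases such as GLS2 release it again, and the transaminases GOT1, GOT2 and GPT2 pass the amino group of glutamate on to aspartate or alanine. Aspartate is then used by ASNS, which builds asparagine with the amide nitrogen of glutamine, and by ASS1, which joins it to citrulline on the way to arginine, while ALDH18A1 and PYCR1 reduce glutamate to proline. ASNS is a textbook target of the transcription factor ATF4, which is made when amino acids are scarce, and binds a composite element in the ASNS promoter together with a partner of the C/EBP family. MYC, with its partner MAX, binds the E-box, and it is known for driving glutamine use in many tumour lines.

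All 7 measured enzymes fell with doxycycline, over a wide range of sizes. ASNS was 13.9-fold lower, ASS1 5.35-fold lower and PYCR1 2.57-fold lower, while GOT1, GOT2, GLUL and ALDH18A1 fell by 1.30-fold to 1.52-fold. The median log2 fold change of the 7 was -0.60, against 0.04 for the whole array. Calls were made at a Benjamini-Hochberg adjusted p under 0.05 in a limma fit across the 18569 probe sets, of which 38.1% were called, 17.2% lower and 20.9% higher. On 6 of the 7 enzymes no doxycycline array reached the lowest control array, which was the case for 13.6% of all probe sets. A fall of at least 2-fold was called for 3 enzymes, ASNS, ASS1 and PYCR1, and for 4.04% of all probe sets. Signals are log2 values of RMA, the authors' array summary, in which a change is measured against the rest of the array, and fewer transcribing cells and less RNA per cell cannot be told apart.

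**Figure D1:**
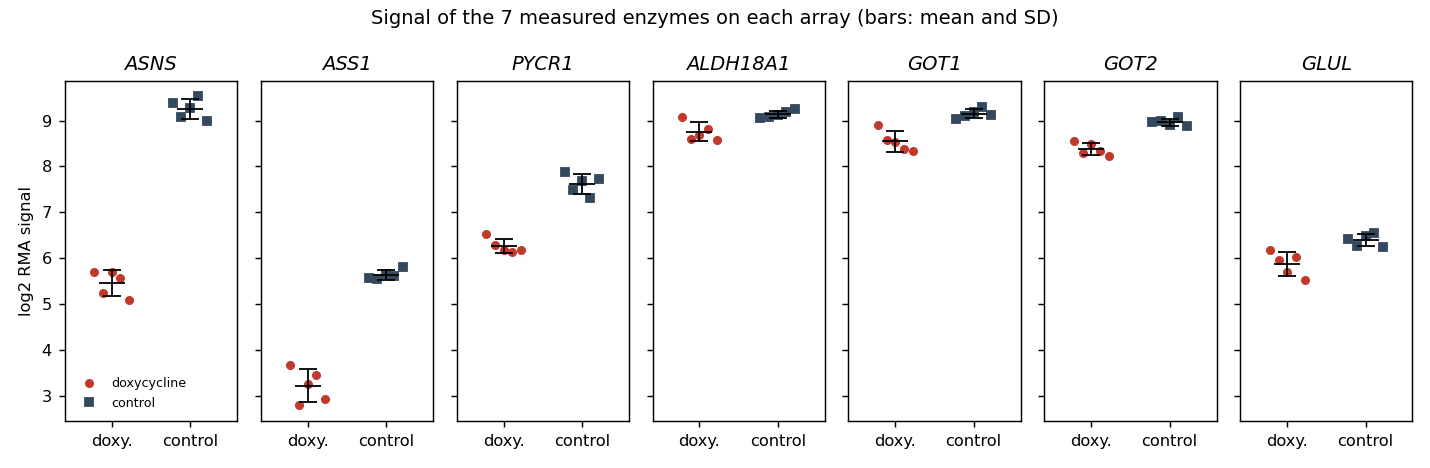
Log2 RMA signal (y axis) of the 7 enzymes on the 5 doxycycline arrays (red circles) and the 5 control arrays (dark squares), with bars at the mean and SD. ASNS, ASS1 and PYCR1 are far apart between groups, ALDH18A1 overlaps on 1 doxycycline array, and heights of different genes are not comparable because each has its own probes.

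Asparagine synthetase showed the largest fall of the enzymes and the 6th lowest fold change among 18569 probe sets. ASNS signal was 5.69, 5.23, 5.70, 5.57 and 5.08 log2 units on doxycycline arrays 1 to 5, against 9.39, 9.08, 9.28, 9.53 and 8.996 on control arrays 1 to 5. Every doxycycline array lay more than 3 log2 units below every control array, with 3.30 log2 units between the closest arrays of the groups. The mean was 5.45 ± 0.28 with doxycycline and 9.25 ± 0.22 in control (SD, n = 5 each), a log2 fold change of -3.80 ± 0.14 (SE) at a limma adjusted p of 5.07e-11. The 95% interval of the fit ran from -4.09 to -3.51. ASNS, which lies at chr7:97851677-97928441 in GRCh38.p14, has 2 promoter windows in the RefSeq table, and they overlap. The one further upstream, chr7:97872359-97872658 on the minus strand, is shown because it holds the core of the amino acid response element, searched as TGATGNAA on both strands. The match, in capitals, starts 68 bases before the annotated start site, at chr7:97872469-97872476.
ASNS promoter window: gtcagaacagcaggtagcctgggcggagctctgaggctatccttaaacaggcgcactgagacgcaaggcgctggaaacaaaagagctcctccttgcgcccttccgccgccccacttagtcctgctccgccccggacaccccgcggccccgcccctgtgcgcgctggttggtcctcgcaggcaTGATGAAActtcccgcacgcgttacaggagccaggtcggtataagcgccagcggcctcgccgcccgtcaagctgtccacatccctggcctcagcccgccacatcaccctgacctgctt

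This core occurred in 3.62% of 35116 human promoter windows of the same length (250 bases before the start site and the first 50 bases of the transcript). Of 10 windows that the table gives for 7 of the 9 genes, 2 held it, that of ASNS and that of GOT1. A match of letters describes the sequence and is not evidence of binding in these cells. PYCR1 and GPT2 have no window in the table. GLS2, whose expression was not analysed, has a window, and it held neither this core nor an E-box.

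ASS1, argininosuccinate synthase, the enzyme that commits aspartate and citrulline to arginine synthesis, had the next largest fall. Its signal was 3.68, 2.79, 3.25, 3.44 and 2.93 log2 units on doxycycline arrays 1 to 5, against 5.56, 5.55, 5.66, 5.61 and 5.81 on control arrays 1 to 5. The groups were 1.87 log2 units apart at their closest, and the doxycycline arrays scattered more widely than the control arrays. The means were 3.22 ± 0.36 with doxycycline and 5.64 ± 0.10 in control (SD, n = 5 each), giving a log2 fold change of -2.42 ± 0.14 (SE; limma adjusted p = 5.31e-09), the 49th lowest of all probe sets. The lowest doxycycline array was below 2.85, the 25th percentile of mean signal over all probe sets, a range in which array background compresses fold changes. ASS1 lies at chr9:130444707-130501274. Its downstream promoter window, chr9:130444711-130445010 on the plus strand, is given because it holds the E-box CACGTG, in capitals, which starts 71 bases before that start site, at chr9:130444890-130444895.
ASS1 promoter window: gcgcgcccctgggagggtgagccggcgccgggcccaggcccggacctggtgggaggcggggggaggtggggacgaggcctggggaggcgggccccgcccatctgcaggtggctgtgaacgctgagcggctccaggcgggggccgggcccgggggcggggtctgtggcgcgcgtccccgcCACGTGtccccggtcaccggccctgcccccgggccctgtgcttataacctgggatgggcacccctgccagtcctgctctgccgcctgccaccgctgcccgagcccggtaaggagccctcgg

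Among the 7 enzymes, those of proline synthesis, PYCR1 and ALDH18A1, both fell, by different amounts. PYCR1, which catalyses the last step in mitochondria, had signals of 6.53, 6.28, 6.17, 6.14 and 6.18 log2 units on doxycycline arrays 1 to 5, against 7.88, 7.49, 7.69, 7.32 and 7.74 on control arrays 1 to 5. Groups stayed 0.79 log2 units apart. PYCR1 averaged 6.26 ± 0.16 with doxycycline and 7.62 ± 0.22 in control (SD, n = 5 each), and its log2 fold change was -1.36 ± 0.11 (SE; limma adjusted p = 1.80e-07). The gene spans chr17:81932391-81937300.

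ALDH18A1, the bifunctional enzyme that takes glutamate to the semialdehyde shared by proline and ornithine synthesis, fell least of the 7. Its signals were 9.08, 8.60, 8.69, 8.82 and 8.58 log2 units on doxycycline arrays 1 to 5, against 9.05, 9.08, 9.13, 9.19 and 9.24 on control arrays 1 to 5. Doxycycline array 1 lay within the control range, and the other doxycycline arrays lay below it. Means of 8.76 ± 0.21 with doxycycline and 9.14 ± 0.08 in control (SD, n = 5 each) gave a log2 fold change of -0.38 ± 0.10 (SE; limma adjusted p = 0.00660). Without doxycycline array 1 the log2 fold change of ALDH18A1 was -0.46. The gene lies at chr10:95605941-95656711, and its promoter window at chr10:95656662-95656961 on the minus strand is shown for its E-box, in capitals, 136 bases before the start site.
ALDH18A1 promoter window: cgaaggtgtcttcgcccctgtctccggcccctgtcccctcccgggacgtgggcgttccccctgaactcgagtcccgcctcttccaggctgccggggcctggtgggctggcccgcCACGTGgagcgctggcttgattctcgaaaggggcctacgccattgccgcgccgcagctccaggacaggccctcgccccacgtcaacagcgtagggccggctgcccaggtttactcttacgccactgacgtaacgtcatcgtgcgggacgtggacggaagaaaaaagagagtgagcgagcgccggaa

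E-boxes (CACGTG, which reads the same on both strands) were found in 7.26% of the 35116 windows and in 2 of the 10 windows of these genes. The windows with an E-box belong to ASS1 and ALDH18A1. As for the other motif, a match of letters is not evidence of binding in these cells, and a relation to the falls was not tested. No window held both motifs.

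Cytosolic and mitochondrial aspartate transaminase fell to a like degree. These enzymes exchange amino groups between glutamate and aspartate on either side of the inner mitochondrial membrane and form part of the malate-aspartate shuttle, which carries reducing equivalents into mitochondria. GOT1, the cytosolic form, had signals of 8.91, 8.58, 8.53, 8.39 and 8.34 log2 units on doxycycline arrays 1 to 5, against 9.04, 9.11, 9.19, 9.30 and 9.12 on control arrays 1 to 5. The groups did not overlap, but doxycycline array 1 was only 0.13 log2 units below the lowest control array. The log2 fold change of GOT1 was -0.60 ± 0.11 (SE; limma adjusted p = 3.09e-04), from means of 8.55 ± 0.22 with doxycycline and 9.15 ± 0.10 in control (SD, n = 5 each). GOT1 lies at chr10:99396870-99430624. Its window at chr10:99430575-99430874 on the minus strand is the second with the amino acid response core, here read on the opposite strand (capitals, starting 198 bases before the start site).
GOT1 promoter window: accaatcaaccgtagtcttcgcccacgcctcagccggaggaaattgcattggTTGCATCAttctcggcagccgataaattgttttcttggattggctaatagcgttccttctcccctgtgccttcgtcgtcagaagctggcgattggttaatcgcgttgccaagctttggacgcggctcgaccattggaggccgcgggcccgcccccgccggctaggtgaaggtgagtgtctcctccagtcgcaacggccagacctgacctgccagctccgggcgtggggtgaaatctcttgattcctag

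GOT2, the mitochondrial form at chr16:58707131-58734316, had signals of 8.55, 8.30, 8.49, 8.35 and 8.23 log2 units on doxycycline arrays 1 to 5, against 8.97, 8.99, 8.91, 9.08 and 8.89 on control arrays 1 to 5. The arrays of the groups were at least 0.34 log2 units apart. GOT2 averaged 8.39 ± 0.13 with doxycycline and 8.97 ± 0.08 in control (SD, n = 5 each), a log2 fold change of -0.58 ± 0.08 (SE; limma adjusted p = 5.28e-05). Its window held neither motif.

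GLUL, glutamine synthetase, also fell, in cells whose medium contained glutamine in both groups. Signals were 6.17, 5.97, 5.69, 6.02 and 5.52 log2 units on doxycycline arrays 1 to 5, against 6.42, 6.27, 6.48, 6.55 and 6.25 on control arrays 1 to 5. The groups did not overlap, with 0.09 log2 units between the highest doxycycline array, array 1, and the lowest control array. GLUL had means of 5.87 ± 0.26 with doxycycline and 6.39 ± 0.13 in control (SD, n = 5 each) and a log2 fold change of -0.52 ± 0.12 (SE; limma adjusted p = 0.00264). The gene lies at chr1:182378098-182391790, and neither of its windows held a motif.

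**Figure D2:**
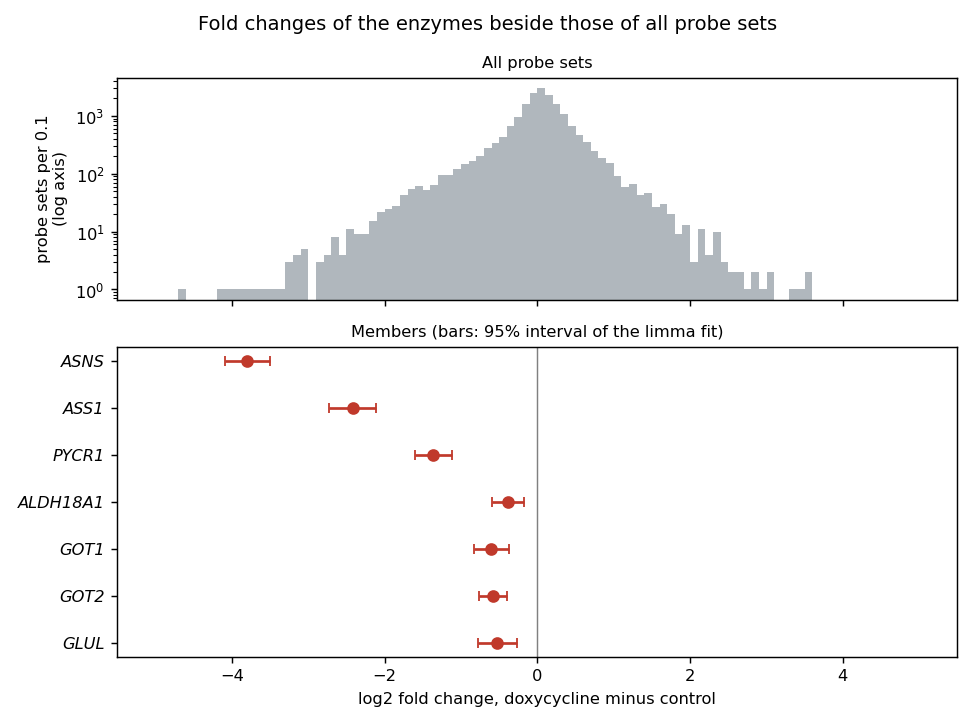
Log2 fold change of doxycycline over control (x axis) for all 18569 probe sets as a histogram (upper panel, log axis) and for the 7 enzymes with the 95% interval of the limma fit (lower panel). ASNS lies at the far left of the distribution at -3.80, and the intervals of the 4 smallest falls lie between -0.83 and -0.17.

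To describe how unequally related enzymes changed, the log2 difference between the genes of a pair was taken on each array. It was compared between groups with a two-sided exact permutation test over the 252 splits of the arrays. The pairs were chosen with earlier results of these data known, so a small p-value here is not independent support for unequal change. Of 8 pairs 4 could be formed, and p-values were adjusted over these 4. The other pairs held a gene whose expression was not analysed here, such as GLS2 or GPT2. Such a test shows unequal change of probe set signals, and probe sets can differ in how strongly they respond to the same change of RNA.

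GOT1 and GOT2 did not differ in their fall beyond the spread of the arrays. The GOT1 minus GOT2 signal was 0.16 ± 0.14 log2 units with doxycycline and 0.18 ± 0.09 in control (SD, n = 5 each), and the fold changes differed by -0.02, with a 95% interval from -0.193 to 0.161 (exact permutation adjusted p = 0.802). This interval leaves room for a small difference in either direction.

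The measured fall of ASNS was larger than those of its paired enzymes. ASNS minus GLUL, the synthetases that form the amides of aspartate and glutamate, was -0.42 ± 0.27 log2 units with doxycycline and 2.86 ± 0.11 in control (SD, n = 5 each). The log2 fold change of ASNS was lower than that of GLUL by -3.28, with an interval from -3.55 to -2.98. For ASNS minus ASS1, the enzymes that consume aspartate, the values were 2.24 ± 0.20 with doxycycline and 3.62 ± 0.29 in control (SD, n = 5 each). That difference of fold changes was -1.38, with an interval from -1.77 to -1.06. With doxycycline ASS1 averaged 3.22 log2 units, near 2.85, the 25th percentile of mean signal, where background compresses fold changes. The part of such compression in this difference was not tested. In proline synthesis PYCR1 fell more than ALDH18A1, with PYCR1 minus ALDH18A1 at -2.50 ± 0.14 with doxycycline and -1.52 ± 0.25 in control (SD, n = 5 each), a difference of -0.98 and an interval from -1.28 to -0.683. Each of these 3 pairs had an exact permutation p of 0.00794, the smallest that 252 splits allow, and an adjusted p of 0.0106.

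**Figure D3:**
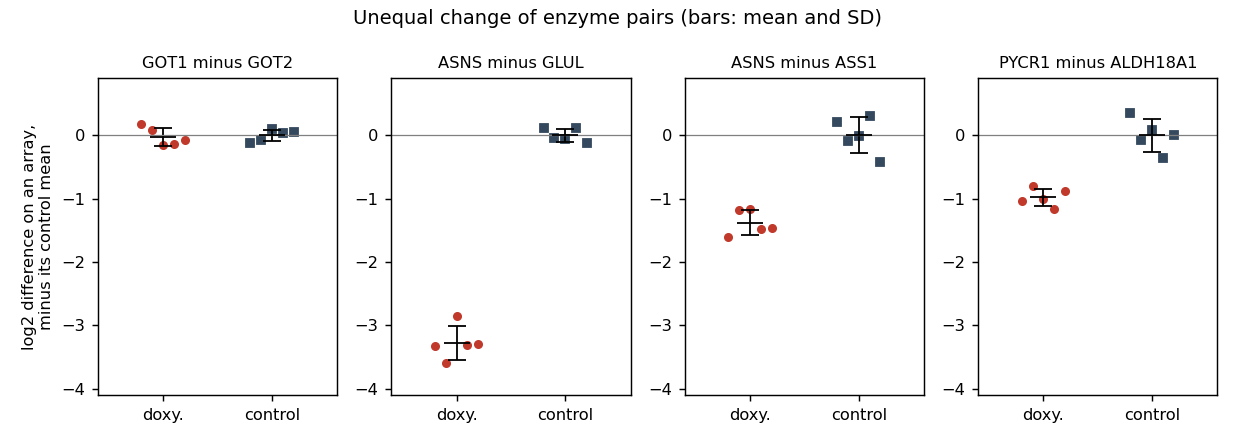
Log2 difference between the genes of each pair on every array, with the control mean of the pair set to 0 (y axis), for doxycycline (red circles) and control (dark squares); bars show mean and SD. The groups lie apart for ASNS minus GLUL, ASNS minus ASS1 and PYCR1 minus ALDH18A1 and overlap for GOT1 minus GOT2.

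The enzymes shared part of their spread between doxycycline arrays. Doxycycline array 1 had the highest signal of its group for 6 of the 7 enzymes, the exception being ASNS, where array 3 was higher by less than 0.01 log2 units. Doxycycline array 5 had the lowest signal for 5, the exceptions being ASS1, lowest on array 2, and PYCR1, lowest on array 4. The median deviation of the 7 enzymes from the mean of their own group was 0.30 log2 units on doxycycline array 1 and -0.21 on doxycycline array 5. Over all probe sets called lower, the median deviation on those arrays was 0.03 and -0.02. The pattern is not particular to these enzymes. Among genes of the lists below, BCAT1 was also highest on doxycycline array 1 and lowest on array 5 of that group. PFAS, CAD, PSAT1, TRIB3 and CHAC1 were highest on array 1 too, while PPAT, OAT and ADSL were lowest on it. Spread was larger with doxycycline than in control for 6 of the 7 enzymes, all but PYCR1, and for 59.6% of all probe sets. The part of array handling in these deviations was not tested. Leaving out either array kept all 7 calls.

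**Figure D4:**
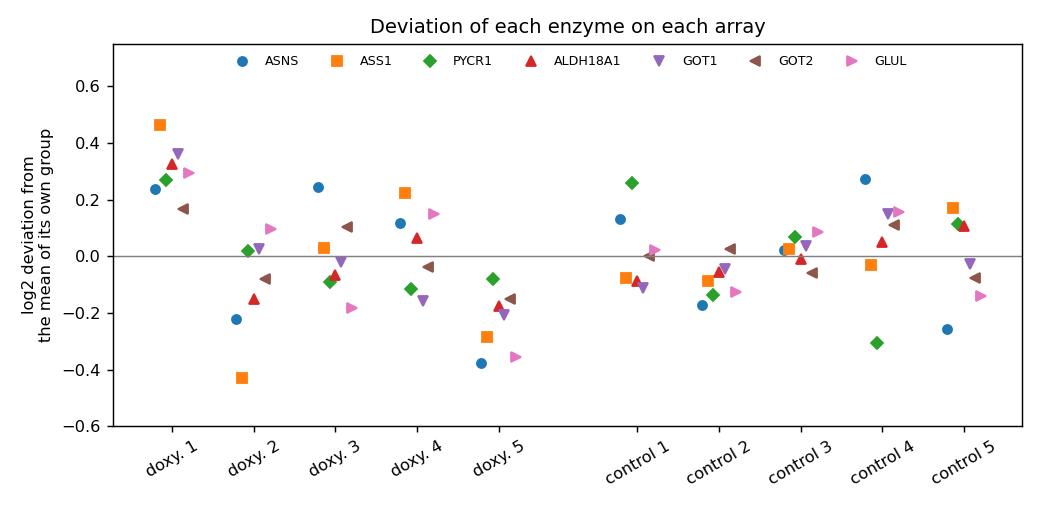
Deviation of each enzyme's log2 signal from the mean of its own group (y axis) on the 5 doxycycline and the 5 control arrays (x axis), 1 symbol per enzyme. All 7 enzymes lie above their group mean on doxycycline array 1 and below it on doxycycline array 5.

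The genes whose profile over the 10 arrays was most like that of ASNS were found by the root mean square difference between log2 deviations from each gene's control mean. They were MTHFD2, a mitochondrial folate enzyme (0.21 log2 units), SLC7A11, the cystine transporter (0.25), CFAP97 (0.27) and NETO2 (0.29). ALDH18A1, at the other end, was closest to TRPV4, a cation channel (0.05), and to CIDEC, CCDC169 and WFDC9 (0.07 each). These distances are descriptions over arrays that share the same contrast.

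Other enzymes that draw on glutamine fell in part. The counts of this list and the following ones stand beside 17.2% called lower and 20.9% called higher over all probe sets. Of 11 measured glutamine amidotransferases, which take the amide nitrogen of glutamine into other products, 6 fell and 1 rose, with a median log2 fold change of -0.27. Those with the largest falls serve nucleotide synthesis. They were the CTP synthase CTPS1 (-1.64 ± 0.08, log2 fold change ± SE), the purine enzyme PFAS (-1.43 ± 0.10), the pyrimidine enzyme CAD (-1.14 ± 0.11) and PPAT, which starts purine synthesis (-0.85 ± 0.09). Not all nucleotide enzymes of the list fell as much. The other CTP synthase, CTPS2, was not called (0.02 ± 0.09), and GMPS fell by less (-0.27 ± 0.08). NADSYN1, which makes NAD, was the single riser, by 0.26 ± 0.09 at a limma adjusted p of 0.0338. Its call was lost without doxycycline array 2, 4 or 5 and without control array 1, 2, 4 or 5 (limma adjusted p up to 0.0849), which leaves 6 lower and 0 higher.

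Among 12 other enzymes of glutamate and transamination, 6 fell and 1 rose, with a median of -0.24. PSAT1, the transaminase of serine synthesis (-3.24 ± 0.10), and BCAT1, the cytosolic branched-chain transaminase (-2.20 ± 0.08), fell most, followed by the omega-amidase NIT2 (-0.79 ± 0.09) and glutamate dehydrogenase GLUD1 (-0.52 ± 0.07). OAT, ornithine aminotransferase, which links ornithine to the semialdehyde between glutamate and proline, rose by 0.35 ± 0.08. The weakest of the 6 falls, that of GAD1 (-0.30 ± 0.11, limma adjusted p = 0.0436), was lost in 8 of the 10 fits without 1 array, all but those without doxycycline array 3 or control array 3, and when arrays were centred on their median (adjusted p = 0.0653). The cytosolic alanine transaminase GPT had a log2 fold change of -0.02 ± 0.14 and was not called. GPT was dim, at 3.34 log2 units with doxycycline and 3.36 in control, which leaves little room to see a fall.

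Of 5 other measured proline enzymes 1 fell, the cytosolic reductase PYCR3 (-0.52 ± 0.11), and 1 rose, OAT, which is in both lists. The median was -0.05, close to the 0.04 of all probe sets. Of 14 other enzymes of aspartate, asparagine and arginine 3 fell and 2 rose, with a median of -0.03. ARG1, OTC, ASPG, ASPA and AGMAT in this list were below the 25th percentile of mean signal. The same held for PRODH2 among the proline enzymes and for TAT among the transaminases. A fall can hardly be seen at such signals, so the medians of these lists may understate change. The purine enzyme ADSL (-0.60 ± 0.10), the mitochondrial arginase ARG2 (-0.52 ± 0.08) and the asparaginase ASRGL1 (-0.43 ± 0.14) fell, and NAGS, which makes the activator of the urea cycle's first enzyme (0.62 ± 0.12), and the D-aspartate oxidase DDO (0.34 ± 0.09) rose. NAGS was dim, with a control mean of 2.93 log2 units beside 2.85 at the 25th percentile. The ASRGL1 call (limma adjusted p = 0.0250) was lost without doxycycline array 2, 4 or 5 and without control array 4 (adjusted p up to 0.0674), which leaves 2 lower. ASL, the enzyme that follows ASS1 in arginine synthesis, was not called, at 0.08 ± 0.12. In the malate-aspartate shuttle and related carriers 2 of 8 fell and none rose, with a median of -0.12. These were the aspartate-glutamate carrier SLC25A12 (-0.44 ± 0.09) and mitochondrial malate dehydrogenase MDH2 (-0.36 ± 0.10). In the proline, aspartate and shuttle lists the counts called lower are near the 17.2% of all probe sets. Those called higher do not exceed the 20.9% of all probe sets.

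Genes listed here as amino acid response regulators, among them the enzyme CHAC1, mostly fell as well. Of 15 measured 9 fell and 2 rose, and the median was -0.58. TRIB3, a pseudokinase that restrains ATF4 (-3.04 ± 0.13), CEBPG, a C/EBP partner of ATF4 (-2.24 ± 0.09), the glutathione-degrading CHAC1 (-2.21 ± 0.12) and NUPR1 (-2.08 ± 0.12) fell most. ATF4 itself was at 9.29 ± 0.16 log2 units with doxycycline and 9.88 ± 0.04 in control (SD, n = 5 each), a log2 fold change of -0.59 ± 0.09 (SE; limma adjusted p = 6.62e-05). Much of the control of ATF4 is known to act on translation, which these arrays do not measure. None of the EIF2AK kinases fell. Those that rose were EIF2AK3, the endoplasmic reticulum stress sensor PERK (1.25 ± 0.08), and EIF2AK4, the amino acid sensor GCN2 (0.39 ± 0.09). EIF2AK1 (-0.02 ± 0.09) and EIF2AK2 (0.11 ± 0.10) were not called.

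**Figure D5:**
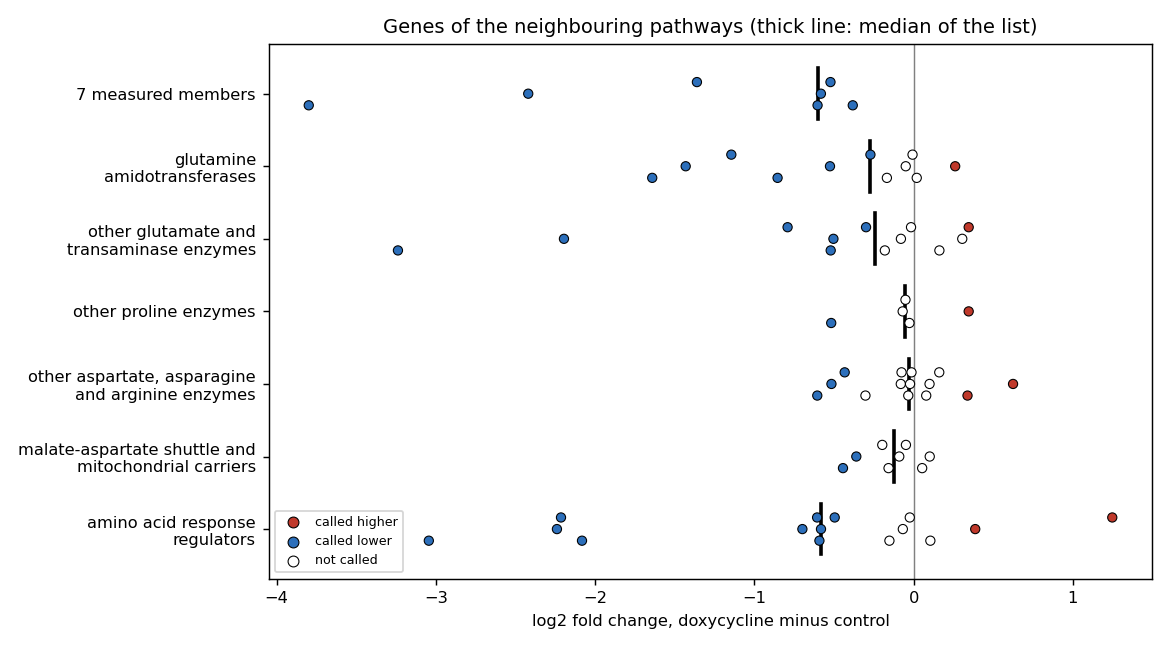
Log2 fold change of doxycycline over control (x axis) for the 7 enzymes and for the measured genes of 6 neighbouring lists, filled where called (red higher, blue lower) and open where not, with a thick line at the median of each list. The medians run from -0.60 for the 7 enzymes and -0.58 for amino acid response regulators to -0.03 for the other enzymes of aspartate, asparagine and arginine.

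Array medians lay between 5.02 and 5.10 log2 units, and no arrays held identical values. Of 7 measured melanocyte markers MITF, SOX10 and S100B were above the 25th percentile of mean signal, while PMEL, MLANA, TYR and TYRP1 were below it. MITF (log2 fold change 1.21), S100B (0.26) and TYR (0.23) were called higher, and the mean of the melanocyte list ran from 4.80 to 4.94 log2 units on doxycycline arrays and from 4.58 to 4.65 on control arrays. None of 5 keratinocyte markers was above that percentile. Among leukocyte markers PTPRC and CD3E were below it and LYZ and CD14 above it, and among endothelial markers PECAM1 and CDH5 were below it and KDR and VWF above it. All 5 fibroblast markers were above the percentile, 4 of them were called higher, and the list's mean signal ran from 4.78 to 4.96 log2 units on doxycycline arrays and from 4.02 to 4.18 on control arrays. Of 4 measured leukocyte markers LYZ (1.44) and CD14 (0.51) were called higher, with list means of 3.97 to 4.27 on doxycycline arrays and 3.49 to 3.78 on control arrays, and of 4 endothelial markers KDR was called higher (1.18), with list means of 3.55 to 4.06 on doxycycline arrays and 3.24 to 3.52 on control arrays. The keratinocyte list had 1 marker called higher, with means of 2.42 to 2.64 on doxycycline arrays and 2.38 to 2.66 on control arrays. The part of other cells in the enzymes' values was not tested.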

How the data were processed

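The deposited values are log2 expression values of 10 arrays, made by the authors with RMA, which corrects background, normalizes quantiles and summarises the probes of a set. RMA is named per the submitters' processing notes, and its version and filters are not stated in what was used here. Depth in reads does not apply, and the number of arrays limits precision. Symbols came from the platform annotation (17511 probe sets with 1 symbol, 0 with several, 1058 unnamed here). All 18569 probe sets were tested in limma 3.58.1 (R 4.3.3; lmFit, then eBayes), with group as the only term, two-sided, with Benjamini-Hochberg adjustment, and the fit was tested on simulated data. Pair differences were tested by exact permutation. Promoter windows are from RefSeq (GRCh38.p14).

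The enzymes, gene lists and pairs were chosen with earlier results of these data known. Up to 4 called genes per list were named by size of change, with every called gene of the rarer direction, the genes of the pairs, and the 4 most similar profiles of the enzymes with the lowest and highest fold change. ATF4, EIF2AK1, EIF2AK2, CTPS2, GMPS, ASL, GAD1, TAT, PRODH2, ARG1, OTC, ASPG, ASPA and AGMAT, and BCAT2 and SLC25A13 in the limits, were named after their values were seen. Same-numbered arrays of the groups had correlations of deviations from -0.44 to -0.01, so the numbers do not pair them. Alternatives were median centring, quantile normalization, filters on dim probe sets, trended robust variances, a replicate block, leaving out each array and stricter calls.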

Additional observations from a re-analysis of the deposited data

How the results depend on the processing

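All 7 enzymes stayed called lower under every alternative for which a value was had, except the call that also required a 2-fold change, which kept 3 of them. The 10 fits without 1 array gave 7 calls each. Over all alternatives the highest adjusted p was 0.0205, for ALDH18A1 with the replicate block. ASS1 has no value among probe sets above the median signal. No enzyme has another probe set, so that alternative was not run.

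With the size requirement, calls numbered 1202 of all probe sets (452 higher and 750 lower), 3 glutamine amidotransferases, 2 other glutamate and transaminase enzymes, 5 amino acid response regulators, and 0 in the proline, the aspartate and the shuttle lists. Above the median signal 1 proline and 3 aspartate, asparagine and arginine enzymes were called, since fewer genes were tested. All other totals of calls per list stayed within 1.5 times, but single calls did not all hold. NADSYN1 was lost in 9 of 17 alternatives (the replicate block, at adjusted p = 0.0755, the 0.01 threshold and 7 fits without 1 array), GAD1 in 13 of 17 and ASRGL1 in 5 of 16. GMPS was lost at the 0.01 threshold. Without doxycycline array 1, BCAT2 and SLC25A13 were called lower (adjusted p = 0.0315 and 0.0133), SLC25A13 also above the median signal.

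The GOT1 minus GOT2 difference, which was not called, ranged from -0.0695 to 0.01001 without 1 array and changed sign in 3 of these 10. Replicate numbers are not shown to pair the arrays, and no array's deviations correlated best with its own number. The replicate block gave 6476 calls over all probe sets and the same 7 enzymes. With sign flips within same-numbered arrays as a replicate block, the differences of -3.28 for ASNS minus GLUL, -1.38 for ASNS minus ASS1 and -0.98 for PYCR1 minus ALDH18A1 had an adjusted p of 0.0833. The smallest raw p of that design is 0.0625, so it cannot pass.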

Other observations

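In none of the 14 groups of 5 arrays (7 enzymes in each treatment) did the highest or lowest array stand apart from its neighbour by more than 0.71 of the group's range, the value of Dixon's test at this size.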
